A study of Homo sapiens with 6 samples.

Results

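The HLA class II genes and their regulator CIITA were compared between MDA-MB-231 cells, a human triple-negative breast cancer line, and 231-BR cells, a variant of it that seeks the brain as a site of metastasis. The group holds 8 of the 17039 genes in the expression table, chosen by symbol: HLA-DRA, HLA-DRB1, HLA-DPA1, HLA-DPB1, HLA-DMA, HLA-DMB, CD74 and CIITA. Poly(A) RNA of 3 libraries per line was sequenced, and expression was given as FPKM, the fragments of a gene scaled by its transcript length and by the depth of the library, with 2 decimals. Both lines grew in DMEM with 10% fetal bovine serum and penicillin-streptomycin, but the medium of the 231-BR cells also held 200 μg/mL G418, so that the line and this antibiotic cannot be told apart. The labels name no cytokine treatment of either line.

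HLA class II molecules are pairs of an alpha and a beta chain that present peptides from endosomes to CD4+ T cells. The invariant chain, encoded by CD74, escorts the new pairs to the endosome and blocks their peptide groove until it is degraded, and the HLA-DM pair then catalyses the exchange of its last fragment for a peptide. Transcription of the class II genes depends on CIITA, which also acts on CD74. CIITA is a co-activator that does not bind DNA itself but docks on the RFX, CREB and NF-Y factors at the X and Y boxes of promoters. Dendritic cells, B cells and macrophages make CIITA constitutively, whereas most other cells, carcinoma cells included, make it mainly in response to interferon gamma.

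In GENCODE release 29 on GRCh38, the 6 HLA genes lie in the class II region of chromosome 6. HLA-DRA covers chr6:32439842-32445046 and HLA-DRB1 covers chr6:32578769-32589848. HLA-DMB (chr6:32934629-32941070) and HLA-DMA (chr6:32948613-32969094) lie side by side. HLA-DPA1 (chr6:33064569-33080775) and HLA-DPB1 (chr6:33075926-33087201) overlap and are read from opposite strands, so that without a stated use of strand in the counting their reads cannot be fully told apart. CD74 lies at chr5:150401637-150412929 and CIITA at chr16:10866222-10943021, so these 2 genes share no chromosome with the others.

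Matches to the letters of the X and Y boxes were searched for in the 250 bases before the annotated start. The sequences are shown for 4 genes with every 231-BR library above every MDA-MB-231 library. They are from RefSeq on GRCh38.p14, written 5′ to 3′ along the gene. Capitals mark matches, on either strand, to the X1 box that RFX binds (the long run of capitals) and to ATTGG, the core of the Y box that NF-Y binds. On the other strand the Y box reads CCAAT. No X1 match overlaps a Y match in these windows.
HLA-DRB1, chr6:32589849-32590098, minus strand: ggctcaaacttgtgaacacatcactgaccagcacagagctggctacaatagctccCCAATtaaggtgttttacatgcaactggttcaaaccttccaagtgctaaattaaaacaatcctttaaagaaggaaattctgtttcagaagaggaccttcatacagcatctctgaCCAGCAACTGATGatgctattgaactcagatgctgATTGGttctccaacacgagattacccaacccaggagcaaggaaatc
HLA-DMA, chr6:32953098-32953347, minus strand: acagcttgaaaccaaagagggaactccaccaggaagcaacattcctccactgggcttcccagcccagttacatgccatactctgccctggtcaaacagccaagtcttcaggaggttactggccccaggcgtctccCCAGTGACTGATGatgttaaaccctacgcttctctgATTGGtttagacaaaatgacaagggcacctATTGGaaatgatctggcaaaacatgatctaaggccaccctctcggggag
HLA-DMB, chr6:32941029-32941278, minus strand: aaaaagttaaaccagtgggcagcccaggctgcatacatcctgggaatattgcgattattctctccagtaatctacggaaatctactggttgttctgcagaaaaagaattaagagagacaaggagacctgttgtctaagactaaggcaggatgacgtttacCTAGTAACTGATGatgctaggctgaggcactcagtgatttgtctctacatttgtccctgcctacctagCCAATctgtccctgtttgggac
CD74, chr5:150412911-150413160, minus strand: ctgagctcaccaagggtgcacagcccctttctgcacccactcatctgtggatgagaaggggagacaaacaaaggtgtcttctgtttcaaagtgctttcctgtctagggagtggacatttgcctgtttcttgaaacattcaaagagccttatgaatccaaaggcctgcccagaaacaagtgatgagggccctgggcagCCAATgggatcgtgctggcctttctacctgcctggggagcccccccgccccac

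An entry was found for 6 of the 8 genes, with 7 starts in all. The X1 letters occurred before HLA-DRB1, HLA-DMA and HLA-DMB, and in 0.12% of all 35116 windows of this length. They describe a box of class II promoters, so finding them before class II genes is not an independent test. In HLA-DRB1 the X1 match began 81 bases before the start and was followed after 22 bases by ATTGG, and in HLA-DMA it began 115 bases before the start and was followed after 23 bases by ATTGG. In HLA-DMB the X1 match began 90 bases before the start, and CCAAT followed after 55 bases. The Y box letters alone were found in 32% of all windows and before 5 of the 6 genes, among them CD74 and HLA-DPB1, where no X1 letters were matched. The search allowed no gap or mismatch, so a box with other letters or spacing would be missed, in CD74 and HLA-DPB1 too. A match is a description of the letters and not a measured binding site.

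**Figure D1:**
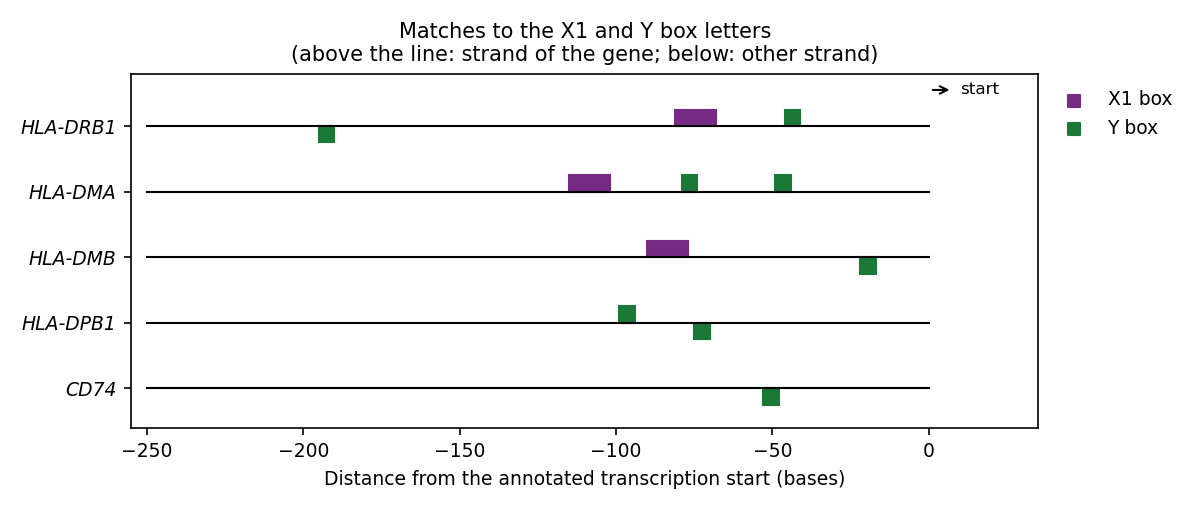
Matches to the X1 box letters (purple) and to the Y box letters (green) in the 250 bases before the annotated start of 5 genes of the group, with the distance from the start in bases on the horizontal axis. HLA-DRB1, HLA-DMA and HLA-DMB carry both, and HLA-DPB1 and CD74 carry a Y box match only; HLA-DPA1 had no match and is not drawn.

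All 3 libraries of 231-BR cells lay above all 3 libraries of MDA-MB-231 cells for 7 of the 8 genes, and only HLA-DPB1 overlapped. Of all 17039 genes, 37.9% had every 231-BR library above every MDA-MB-231 library, and 27.8% had every one below. Levels were low in both lines. CD74 had the highest level of the group in 231-BR cells, at the percentile 48.4 of all genes in the table, and CIITA had the highest level in MDA-MB-231 cells, at the percentile 25.3. In bulk RNA, more cells that express a gene and more RNA per cell cannot be told apart.

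CIITA, the regulator of the group, had 0.83, 0.90 and 0.70 FPKM in the 3 libraries of 231-BR cells and 0.11, 0.19 and 0.15 FPKM in those of MDA-MB-231 cells. The lines did not overlap, and the lowest 231-BR library was well above the highest MDA-MB-231 library. The means were 0.81 ± 0.101 and 0.15 ± 0.040 FPKM (SD, n = 3 each). For the test, 0.1 was added to each FPKM before the log2 was taken, and limma's moderated test was fitted to the 13465 genes with a mean of at least 0.1 FPKM, with Benjamini-Hochberg adjustment over all of them. CIITA rose by 1.87 on this log2 scale (standard error 0.168, 95% interval 1.49 to 2.25, adjusted p = 3.0e-06). It was the only gene of the group whose mean in MDA-MB-231 cells alone passed the filter of 0.1 FPKM, and 547 genes tested had a larger log2 fold change. At an adjusted p under 0.05, 77.3% of all genes tested were called, with 44.4% called higher and 32.9% lower, and a call together with a log2 fold change above 1 by 10.9% and under -1 by 4.34%.

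CD74, the invariant chain and also a surface receptor for the cytokine MIF, differed most. Its values were 4.42, 4.22 and 4.41 FPKM in 231-BR cells against 0.09, 0.03 and 0.05 FPKM in MDA-MB-231 cells. The 231-BR libraries were close to each other, whereas the MDA-MB-231 libraries were all near 0. The log2 fold change was 4.85 (standard error 0.147, 95% interval 4.52 to 5.17, adjusted p = 1.2e-09 from limma), and 55 genes tested had a larger one.

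HLA-DMA encodes the alpha chain of the HLA-DM pair. It had 1.85, 1.80 and 1.96 FPKM in 231-BR cells and 0.04, 0.08 and 0.11 FPKM in MDA-MB-231 cells, with no overlap. Its log2 fold change was 3.50 (standard error 0.164, 95% interval 3.13 to 3.87, adjusted p = 2.4e-08 from limma). HLA-DMB, which encodes the beta chain, had 0.15 FPKM in each of the 231-BR libraries and was listed at 0 in each of the MDA-MB-231 libraries. Its mean over all libraries, 0.075 FPKM, stayed under the filter, so it was not part of the main test. The partner chains thus stood at unequal levels per length in 231-BR cells, with an FPKM of HLA-DMA 12 to 13.1 times that of HLA-DMB over the 3 libraries.

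Among the peptide-presenting chains, HLA-DRA, the near-invariant alpha chain of HLA-DR, had 0.42, 0.65 and 0.52 FPKM in 231-BR cells. In MDA-MB-231 cells it had 0.03 FPKM in replicate 2 and was listed at 0 in the others. The lines did not overlap, and the log2 fold change was 2.51 (standard error 0.208, 95% interval 2.05 to 2.98, adjusted p = 1.6e-06 from limma). HLA-DRB1, the main and highly polymorphic beta chain, had 0.21, 0.27 and 0.10 FPKM in 231-BR cells against 0.04, 0.03 and 0.03 FPKM in MDA-MB-231 cells. Replicate 3 of the 231-BR cells was the lowest of its group but still above every MDA-MB-231 library. The log2 fold change was 1.09 (standard error 0.252, 95% interval 0.53 to 1.66, adjusted p = 0.0027 from limma). HLA-DRB1 has near copies, of which HLA-DRB3 is in the table, at 0 to 0.04 FPKM in both lines, so that its level is uncertain where reads were shared out between the copies.

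The HLA-DP chains were at the edge of detection. HLA-DPA1, the alpha chain, had 0.07, 0.05 and 0.10 FPKM in 231-BR cells and 0.02 FPKM in replicate 2 of the MDA-MB-231 cells, with 0 in the others. HLA-DPB1, the beta chain, had 0.01 FPKM in 1 library of each line and was listed at 0 in the rest, so no difference was detectable. Both were under the filter. The summed FPKM of the 4 presenting chains was 0.71 to 0.97 in the libraries of 231-BR cells and 0.04 to 0.08 in those of MDA-MB-231 cells, and in 231-BR cells CD74 was 4.4 to 6.2 times this sum.

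**Figure D2:**
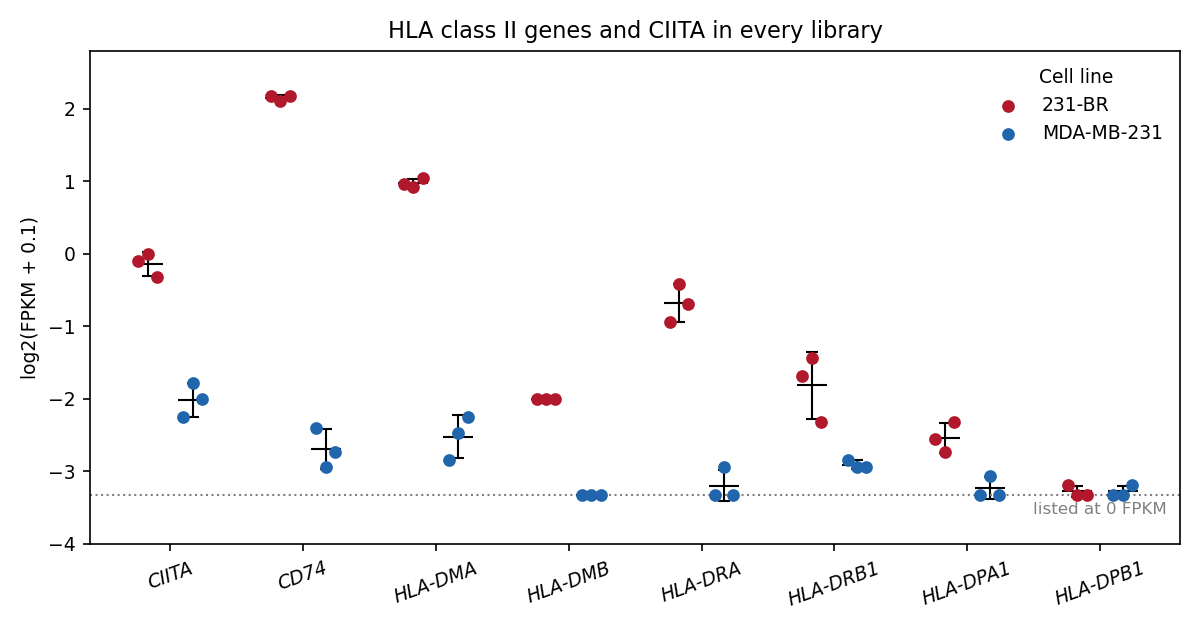
Expression of CIITA and the 7 class II genes as log2(FPKM + 0.1), with 1 point per library, 231-BR in red and MDA-MB-231 in blue; bars show the mean and the SD of the 3 libraries, and the dotted line marks genes listed at 0 FPKM. The red points lie above the blue ones for every gene but HLA-DPB1, with the widest gap for CD74.

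Within 231-BR cells the order of the mean levels was CD74 (4.35 FPKM), HLA-DMA (1.87 FPKM), CIITA (0.81 FPKM), HLA-DRA (0.53 FPKM), HLA-DRB1 (0.193 FPKM), HLA-DMB (0.15 FPKM), HLA-DPA1 (0.0733 FPKM) and HLA-DPB1 (0.00333 FPKM). The libraries of neighbours in this order overlapped only for HLA-DRB1 and HLA-DMB. In MDA-MB-231 cells the order was CIITA (0.15 FPKM), HLA-DMA (0.0767 FPKM), CD74 (0.0567 FPKM), HLA-DRB1 (0.0333 FPKM), HLA-DRA (0.01 FPKM), HLA-DPA1 (0.00667 FPKM), HLA-DPB1 (0.00333 FPKM) and HLA-DMB (0 FPKM), and the libraries of each gene overlapped or met those of the next. FPKM is scaled by transcript length, but the lengths that the authors used are not known, so the order between genes is approximate.

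The tables hold no read counts, but the low values show what a fragment was worth. For genes whose longest coding transcript in GENCODE release 29 has 700 to 2000 bases, low values of FPKM times length in kilobases were pooled over the libraries. They piled up between 0.03 and 0.06, with a second rise from 0.07. Taking the first pile as 1 fragment gave 0.0422 to 0.044 per fragment in the 231-BR libraries and 0.0418 to 0.0447 in the MDA-MB-231 libraries, so that the depth was alike. On this approximate scale CD74 rested on 177.4, 172.9 and 173.1 fragments in 231-BR cells and on 3.5, 1.2 and 2.0 in MDA-MB-231 cells. HLA-DMA rested on 48.0 to 50.0 fragments against 1.0 to 2.9, and HLA-DRA on 12.5 to 19.7 against at most 0.9. HLA-DRB1 rested on 2.8 to 7.9 fragments in 231-BR cells, HLA-DMB on 4.8 to 5.0 and HLA-DPA1 on 2.0 to 3.9. CIITA was left out because its longest transcript, of 16059 bases, falls outside this range.

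HLA-DRA, HLA-DRB1, HLA-DMA and CD74 passed the filter only through their level in 231-BR cells, and the size of their log2 fold change depends on the pseudocount. With 1 FPKM added, it was 2.34 for CD74, 1.41 for HLA-DMA, 0.65 for CIITA, 0.60 for HLA-DRA and 0.21 for HLA-DRB1. With 0.01 FPKM added, the values were 6.13 for CD74, 4.53 for HLA-DMA, 2.38 for CIITA, 5.07 for HLA-DRA and 2.13 for HLA-DRB1, each with an adjusted p under 0.05 from limma in both settings. When all 17039 genes were tested without a filter, 7 of the 8 genes passed as higher in 231-BR cells, against 36.4% of all genes. In that fit HLA-DMB had a log2 fold change of 1.32 (adjusted p = 7.3e-06) and HLA-DPA1 one of 0.70 (adjusted p = 0.0045), and HLA-DPB1 had 0. The identical values of HLA-DMB within each line are rounded to 2 decimals, so its spread is not known.

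**Figure D3:**
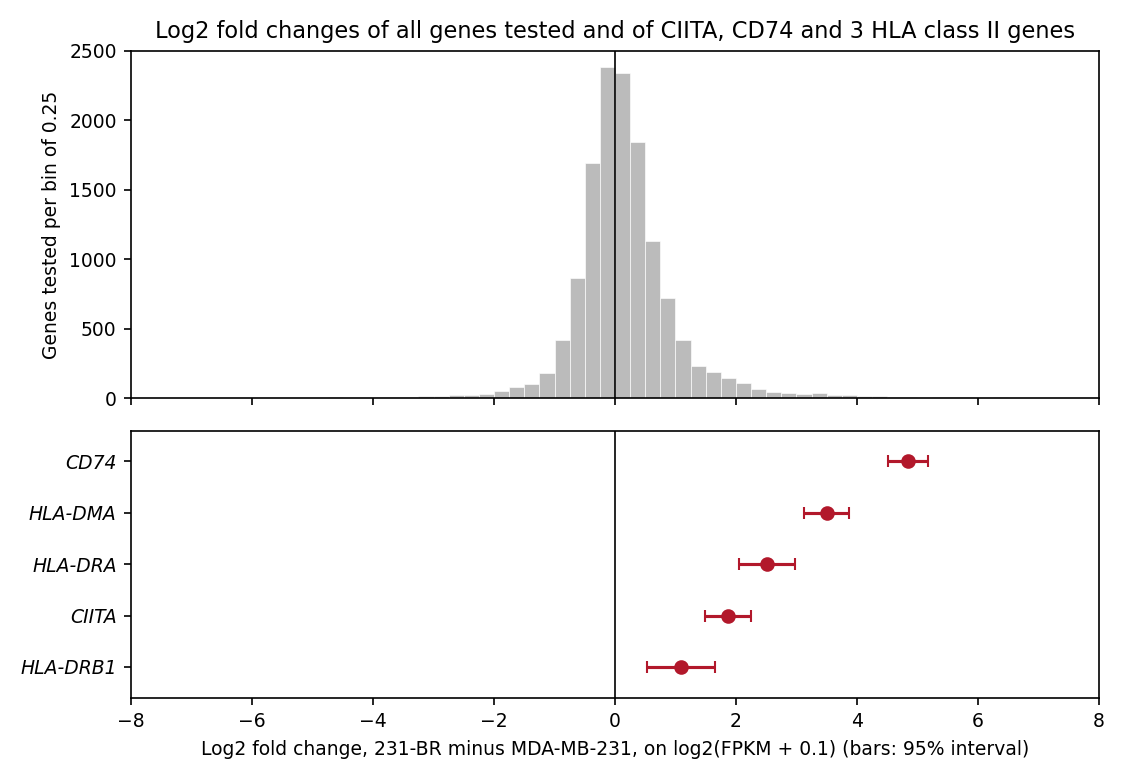
Top, the number of genes per bin of log2 fold change (231-BR minus MDA-MB-231, on log2(FPKM + 0.1)) for all 13465 genes tested; bottom, the log2 fold change of the 5 genes of the group that passed the filter, with 95% intervals from limma. All 5 intervals lie above 0, from HLA-DRB1 at 1.09 to CD74 at 4.85, and the median of all genes tested was 0.08.

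Of 9 other class II chains listed, 4 were in the table and only HLA-DOB passed the filter. HLA-DOB, the beta chain of HLA-DO, an inhibitor of HLA-DM, had 0.88, 0.66 and 0.58 FPKM in 231-BR cells and 0.25, 0.52 and 0.48 FPKM in MDA-MB-231 cells. The lines did not overlap but came close, with a rise of 0.67 on the log2 scale (standard error 0.228, adjusted p = 0.021 in limma). The call rested on single libraries: without 231-BR replicate 1 the adjusted p was 0.09, and without MDA-MB-231 replicate 1 it was 0.06. Under quantile normalization the log2 fold change was 0.24 (adjusted p = 0.37). HLA-DOA, its alpha chain partner, was at 0 to 0.01 FPKM, and HLA-DQB1 was at 0 to 0.07 FPKM in 231-BR cells and listed at 0 in MDA-MB-231 cells. The other 5 chains, among them HLA-DQA1 and HLA-DRB5, were not analysed here.

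The genes that lie between the class II genes moved to both sides. The interval from HLA-DRA to HLA-DPB1 holds 6 further genes that were tested, 3 of them higher and 3 lower in 231-BR cells. TAP1 and TAP2, the peptide transporter of the class I route, fell by 0.60 and 0.36 on the log2 scale, and PSMB8 and PSMB9, subunits of the immunoproteasome, rose by 0.46 and 0.36. BRD2 (chr6:32968660-32981505), a bromodomain gene, overlaps the upstream edge of the GENCODE span of HLA-DMA, so reads from that stretch may not be told apart. The RefSeq start used above for HLA-DMA lies inside this span and away from the overlap, so the 2 annotations differ. BRD2 had 104 ± 2.73 FPKM against 116 ± 1.09 FPKM (mean and SD of 3 libraries), which on the log2 scale was -0.16. Around CD74, the 20 nearest genes with a mean of at least 1 FPKM, 10 on each side, had a median log2 fold change of -0.16, with 3 called higher and 11 lower. Around CIITA the median was 0.26, with 12 called higher and 2 lower, and around HLA-DMA it was -0.08, with 6 called higher and 10 lower, against 44.4% higher and 32.9% lower over all genes tested. These neighbours were picked after the values had been seen.

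The factors that CIITA docks on were present in both lines at mean levels above that of CIITA. Of 8 listed, 5 were called higher and 1 lower in 231-BR cells, against 44.4% and 32.9% of all genes tested. The median log2 fold change was 0.26 against 0.08 for all genes tested. RFX5, the DNA-binding subunit of the RFX complex, had 17.3 ± 0.420 FPKM in 231-BR and 17.9 ± 0.269 FPKM in MDA-MB-231 cells (mean and SD of 3 libraries), so that its log2 fold change was -0.05 (adjusted p = 0.19 from limma), while after scaling by median of ratios or quantiles it was called lower, at -0.10 and -0.13. The other subunits of that complex moved in opposite directions. RFXAP fell from 2.81 ± 0.167 to 1.22 ± 0.0208 FPKM (log2 fold change -1.13), and RFXANK rose from 19.5 ± 1.37 to 29.9 ± 0.436 FPKM (0.62; SD, n = 3 each). NFYC, a subunit of NF-Y, rose by 0.59 on the log2 scale, and ATF1, a CREB family factor, by 0.17, although under quantile normalization the adjusted p of ATF1 was 0.075.

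On the route from interferon gamma to CIITA, 10 of 11 listed genes were tested, with a median log2 fold change of -0.14. Of these genes, 1 was called higher and 5 lower, against 44.4% higher and 32.9% lower over all genes tested. IRF1, a transcription factor that acts on a CIITA promoter, fell from 9.97 ± 0.492 to 6.85 ± 0.0306 FPKM (SD, n = 3 each), and its log2 fold change was -0.53. The receptor chain IFNGR2, the kinase JAK1 and USF1, another factor of that promoter, fell by 0.45, 0.43 and 0.22. SOCS1, a feedback inhibitor of the route, rose by 0.66 (adjusted p = 0.0059), but under quantile normalization its log2 fold change was 0.25 (adjusted p = 0.20). IFNG itself was not analysed here.

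Of the relatives and co-activators of CIITA, 7 were tested, with a median log2 fold change of 0.16. Calls were 4 higher and 2 lower, against 44.4% and 32.9% of all genes tested. NLRC5, the counterpart of CIITA for class I genes, rose from 2.07 ± 0.106 to 3.05 ± 0.125 FPKM (SD, n = 3 each), and its log2 fold change was 0.54. CARM1, an arginine methyltransferase that works with CIITA, rose by 0.81, and the acetyltransferase gene EP300 fell by 0.35. EZH2, the methyltransferase of Polycomb silencing, fell by 0.33, and HDAC2, a histone deacetylase, had a log2 fold change of 0.05 (adjusted p = 0.073), which became a call of 0.09 under quantile normalization.

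The proteases and other enzymes of the endosome, where the invariant chain is degraded and peptides are made, were expressed in both lines. All 13 listed genes were tested, with a median log2 fold change of 0.36. Calls were 7 higher and 5 lower, against 44.4% and 32.9% of all genes tested. CTSS, the protease best known for trimming the invariant chain in professional antigen-presenting cells, had 1.5, 1.76 and 1.63 FPKM in 231-BR cells and 1.41, 1.42 and 1.78 FPKM in MDA-MB-231 cells. The lines overlapped (log2 fold change 0.08, adjusted p = 0.50), and quantile normalization turned the value to -0.29 (adjusted p = 0.033). CTSF, which can take the same role, rose from 1.03 ± 0.110 to 4.50 ± 0.353 FPKM (log2 fold change 2.02), and CTSD, an abundant aspartic protease, fell from 164 ± 7.86 to 58.2 ± 1.87 FPKM (log2 fold change -1.5; SD, n = 3 each). IFI30, a thiol reductase that unfolds antigens, rose by 0.97, the protease CTSC by 0.64 and CST3, an inhibitor of cathepsins, by 0.36.

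Of the 10 genes of trafficking and turnover, 3 were called higher and 5 lower, against 44.4% and 32.9% of all genes tested. Their median log2 fold change was -0.31. CD82, a tetraspanin that associates with class II molecules, fell from 33.0 ± 0.309 to 3.28 ± 0.252 FPKM (SD, n = 3 each), and its log2 fold change was -3.30. CD63 and LAMP1, membrane proteins of late endosomes and lysosomes, fell by 0.73 and 0.93, and RAB7A, a GTPase of late endosomes, rose by 0.35. MARCHF1, a ubiquitin ligase that removes class II molecules from the cell surface, rose from 1.28 ± 0.0896 to 2.27 ± 0.18 FPKM (SD, n = 3 each), and its log2 fold change was 0.78.

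The ligands of CD74 moved the other way from CD74. MIF had 266.70, 300.54 and 295.65 FPKM in 231-BR cells and 381.20, 425.09 and 441.23 FPKM in MDA-MB-231 cells, a log2 fold change of -0.53, and its relative DDT had one of -0.25. CD44, which forms the signalling receptor with CD74, fell by 0.47. CXCR4, another partner of CD74, had 11.26, 10.77 and 11.38 FPKM in 231-BR cells against 0, 0.02 and 0.05 FPKM, so that among the 4 tested genes of this list it alone rose together with CD74. The list had 1 gene called higher and 3 lower, against 44.4% and 32.9% of all genes tested, and its median log2 fold change was -0.36.

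Co-stimulatory and adhesion molecules for CD4+ T cells gave 2 calls higher and 3 lower among 7 tested genes, against 44.4% and 32.9% of all genes tested. Their median log2 fold change was -0.12. CD80, a main co-stimulator, was listed at 0 in every 231-BR library and reached 0.01 FPKM in 1 MDA-MB-231 library. ICAM1, an adhesion molecule of the immune synapse, fell from 26.5 ± 0.698 to 2.8 ± 0.105 FPKM (SD, n = 3 each), and TNFSF9, the ligand of 4-1BB, rose from 0.40 ± 0.135 to 4.11 ± 0.394 FPKM (SD, n = 3 each). CD58 fell by 0.12 and CD40 by 0.14, although the adjusted p of CD40 was 0.059 without 231-BR replicate 1, 0.057 without 231-BR replicate 2 and 0.074 without MDA-MB-231 replicate 2. TNFSF4, the ligand of OX40, rose by 0.60, but its adjusted p was 0.44 under quantile normalization.

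**Figure D4:**
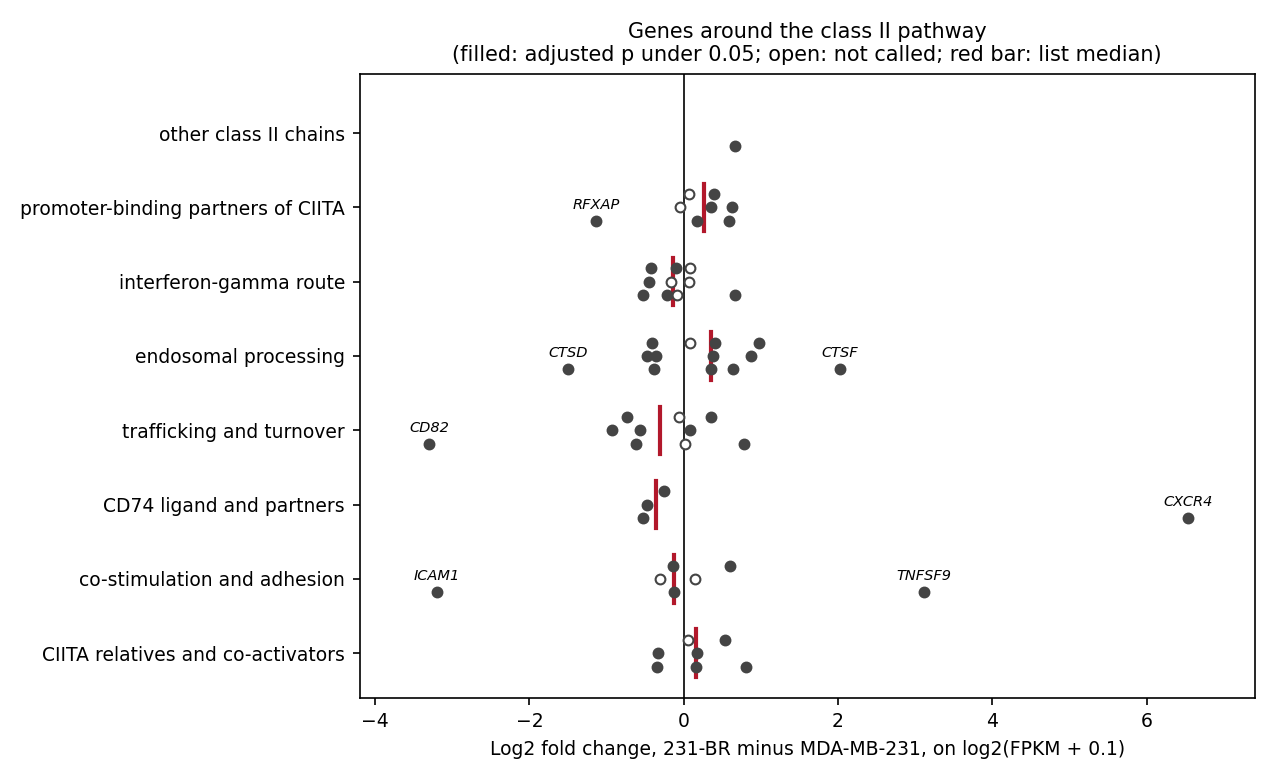
Log2 fold change (231-BR minus MDA-MB-231, on log2(FPKM + 0.1)) of the 60 tested genes of 8 lists around the class II pathway; filled points passed an adjusted p under 0.05, open points did not, and red bars are list medians. The lists spread to both sides of 0, and the named points beyond 1 are CXCR4, TNFSF9 and CTSF on the right and CD82, ICAM1, CTSD and RFXAP on the left.

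Over the 8 lists, 24 of the 60 tested genes were called higher and 24 lower, against 44.4% higher and 32.9% lower over all genes tested. Under quantile normalization 17 were called higher and 29 lower. That setting moved the median of all genes from 0.08 to -0.06, and the share of higher genes among all calls from 57.4% to 45.9%. The list counts thus depended on the scaling. Among the named list genes, HLA-DOB, ATF1, SOCS1 and TNFSF4 lost their call under quantile normalization, and RFX5, CTSS and HDAC2 gained one. The large changes of CXCR4 (6.42), CD82 (-3.45) and ICAM1 (-3.38) stayed. CD74 had a log2 fold change of 4.64 in that setting, and CIITA had 1.5 against 1.87 in the main fit.

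Of the 10 markers of professional antigen-presenting cells, 6 were in the table, and their summed level was 0.55 to 0.66 FPKM in the libraries of 231-BR cells and 0.41 to 0.61 FPKM in those of MDA-MB-231 cells. PTPRC, the pan-leukocyte gene for CD45, was at 0.01 to 0.04 FPKM in 231-BR cells and listed at 0 in MDA-MB-231 cells, and CD79A of B cells was at most 0.10 FPKM in any library. LYZ, a myeloid gene, made up much of the sum and had 0.24 to 0.41 against 0.35 to 0.57 FPKM. Without LYZ the other 5 markers summed to 0.25, 0.21 and 0.38 FPKM in 231-BR cells and to 0.04, 0.06 and 0.19 FPKM in MDA-MB-231 cells. These sums did not overlap but came close, at 0.21 and 0.19 FPKM. Of the 5 genes only PTPRC separated the lines, which 37.9% of all genes did in this direction. CD14, a monocyte and macrophage gene, had 0.15, 0.05 and 0.27 FPKM against 0.03, 0.05 and 0.03 FPKM, and met between the lines at 0.05. AIF1 was listed at 0 in every 231-BR library. The part of these markers in the higher class II genes was not tested. Of 3 T cell markers only CD3E was in the table, at 0 but for 0.03 FPKM in 1 library of 231-BR cells. As labelled, both lines had high VIM, KRT8, KRT18 and CD44, PGR at most at 0.07 FPKM, ESR1 at 0.74 to 1.08 FPKM and ERBB2 at 9.61 to 10.23 FPKM in 231-BR and 4.75 to 5.08 FPKM in MDA-MB-231 cells.

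Genes of other functions followed the profiles of the group closely. Over the 6 libraries, and among genes with a mean of at least 1 FPKM, the profiles of log2(FPKM + 0.1) centred on their own means nearest to CD74 included those of FST and LAMA4, with root mean square differences of 0.125 and 0.176. Nearest to HLA-DMA were DNAAF3 (0.060), TBXAS1 (0.094) and SNTB1 (0.110), and nearest to CIITA were ACSF2 (0.048), CLDN7 (0.105) and EGR1 (0.106). With 3 libraries per line such likeness mainly means a difference of the same size between the lines, as in FST, with a log2 fold change of 4.70. With so few libraries, the smallest p that an exact permutation test (2-sided) of 1 gene allows is 0.1.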

How the data were processed

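RNA of 6 libraries, 3 of 231-BR and 3 of MDA-MB-231 cells, was analysed. The authors filtered the reads with SOAPnuke, mapped them with HISAT2 2.0.4 to the genome (GRCh38.p12 in the submitters' processing notes) and with Bowtie2 2.2.5 to a gene set, and deposited expression as FPKM. The program behind the FPKM and the use of strand are not given in the sources used here. The files of single libraries repeat the values of the matrix, which was used.

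Libraries were grouped by title, since the cell line names in another label count up with the replicate. Whether replicates were separate cultures is not stated, so p-values measure only the spread between these libraries, which may be technical. The 8 genes and the lists were chosen with earlier results of these data known.

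For 13465 genes with a mean of at least 0.1 FPKM, log2(FPKM + 0.1) was compared between the lines with limma 3.58.1 in R 4.3.3 (lmFit, then eBayes with a trend), with Benjamini-Hochberg adjustment. The fit was tested on simulated data. MARCHF1 and MARCHF8, turned into dates in the file, were found by identifier. From lists with over 6 tested genes, the 3 largest called changes and the 3 highest levels are named; RFX5, CTSS, CD80, the HLA-DQ and HLA-DO chains under the filter, and the neighbours were added after their values were seen. A few genes that this rule names are not reported here. Figures were made with Python 3.11.15 and matplotlib 3.10.9.

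The alternatives were other pseudocounts, filters and scalings, the replicate number as a block, eBayes with no trend, and each library left out in turn.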

Additional observations from a re-analysis of the deposited data

How the results depend on the processing

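In every alternative in which they could be tested, CIITA, CD74, HLA-DMA, HLA-DRA and HLA-DRB1 were higher in 231-BR cells with an adjusted p under 0.05 from limma, and no gene of the group was lower (0 calls). All of them but CIITA passed the filter of 0.1 FPKM only through 231-BR cells. For these genes the agreement between filtered settings, and the lack of lower calls, is therefore no added support. The log2 fold change ran from 0.65 to 2.38 for CIITA and from 2.34 to 6.13 for CD74, both ends set by the pseudocount. With each library left out in turn it ran from 1.75 to 1.98 for CIITA, 4.72 to 4.99 for CD74, 3.34 to 3.63 for HLA-DMA, 2.38 to 2.64 for HLA-DRA and 1.07 to 1.35 for HLA-DRB1. HLA-DRB1 fell under the filter, and had no test, without 231-BR replicate 1 or replicate 2. With a pseudocount of 1, 2 of the 5 genes (CD74 and HLA-DMA) kept a log2 fold change over 1. With a filter at a mean of 1 FPKM only CD74 was tested, so 1 gene was called higher and 1 passed the fold criterion. Under quantile normalization CTSS turned to -0.29.

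The replicate numbers did not pair the libraries: deviations of same-numbered libraries from their group means correlated at 0.087, -0.04 and -0.106. With the replicate number as a block, 5 genes of the group were again higher, and 10502 genes were called in all against 10406 without it. In MDA-MB-231 cells HLA-DMB rested on 0 fragments, HLA-DRA, HLA-DPA1 and HLA-DPB1 on less than 1 in any library, HLA-DRB1 on about 1, HLA-DMA on 1.0 to 2.9 and CD74 on 1.2 to 3.5 (approximate), so these levels are limited by depth.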
